A study of Mus musculus with 9 samples.

Results

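The Schlafen genes are a family of growth-regulating genes, and 7 of them, Slfn1, Slfn2, Slfn3, Slfn4, Slfn5, Slfn8 and Slfn9, were followed here in BCR/ABLp185+ mouse cells with and without Stat5a or Stat5b. The members were taken by gene name from the 50686 genes counted in each library. Of the 7 members, 6 passed the filter on low counts that left 13852 genes for testing, and Slfn4 did not.

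RNA-seq of polyA RNA was performed on cell lines grown from bone marrow cells that had been transformed by a retrovirus carrying BCR/ABLp185, a fusion kinase that drives leukemia. All lines were of C57BL/6N background and carried BCR/ABLp185. The wt line kept both Stat5 genes, the Stat5a-/- line came from marrow of mice lacking Stat5a, and the Stat5b-/- line from marrow of mice lacking Stat5b. Each genotype was represented by 1 cell line sequenced in 3 technical replicates, so the p-values below measure the spread between libraries of a line, and the effect of a genotype cannot be told apart from the character of a single line. 

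Schlafen proteins share an N-terminal core fold and are grouped by length. Slfn1 and Slfn2 are short members, Slfn3 and Slfn4 are of intermediate length, and Slfn5, Slfn8 and Slfn9 are long members that carry a helicase-like region in addition. The genes are expressed in lymphoid and myeloid cells, several of them slow the growth or keep the quiescence of T cells and monocytes, and many are induced by type I interferon, which signals through cell-surface receptors and the kinases Jak1 and Tyk2 to transcription factors that include Irf9. STAT5A and STAT5B are transcription factors that BCR/ABL activates.

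All members lie in a single cluster on chromosome 11 of GRCm38, from 82951349 to 83215154, over 263.8 kb. Slfn5 (ENSMUSG00000054404.13) spans 82951349 to 82964840 on the plus strand and opens the cluster. Slfn9 (ENSMUSG00000069793.12, 82978390 to 82991830) and Slfn8 (ENSMUSG00000035208.16, 83002158 to 83020810) follow on the minus strand. Slfn2 (ENSMUSG00000072620.3, 83065112 to 83070678), Slfn1 (ENSMUSG00000078763.2, 83116849 to 83122670), Slfn4 (ENSMUSG00000000204.16, 83175186 to 83190216) and Slfn3 (ENSMUSG00000018986.10, 83191330 to 83215154) lie on the plus strand. Stat5b and Stat5a are on the same chromosome, 17.6 Mb beyond the end of the cluster.

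The members differed in the letters just ahead of their start sites, which are shown to compare the long members with the others. The windows held the 250 bases before each RefSeq start (GRCm38.p6), and every member had an entry. The core of the interferon-stimulated response element, searched on both strands as GAAA, any 2 bases and GAAA, was present in the windows of the 3 long members and of no short or intermediate member, against 2.98% of all 32851 windows. In the next lines the capitals mark this element, which in Slfn9 and Slfn8 reads on the opposite strand.
Slfn5, chr11:82951932-82951971, plus strand: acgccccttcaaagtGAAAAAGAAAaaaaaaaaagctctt
Slfn9, chr11:82991851-82991890, minus strand: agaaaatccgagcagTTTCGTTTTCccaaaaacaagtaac
Slfn8, chr11:83020834-83020873, minus strand: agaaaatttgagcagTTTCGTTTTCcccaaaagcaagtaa
The element began 155 bases before the start of Slfn5, 45 before that of Slfn9 and 48 before that of Slfn8. The RefSeq start of Slfn5 lies inside the longer gene of the deposited tables, and Slfn8 has an additional RefSeq start for which the same element lies 136 bases ahead.

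The short and intermediate members shared another stretch, ACTTCCTGG, the longest that the 4 windows had in common on the strand of the gene. It was noticed when the windows were read, so its presence in all 4 is how it was found and not a result. Searched on both strands, it was in 0.7% of all windows, and the capitals mark it.
Slfn2, chr11:83064862-83065111, plus strand: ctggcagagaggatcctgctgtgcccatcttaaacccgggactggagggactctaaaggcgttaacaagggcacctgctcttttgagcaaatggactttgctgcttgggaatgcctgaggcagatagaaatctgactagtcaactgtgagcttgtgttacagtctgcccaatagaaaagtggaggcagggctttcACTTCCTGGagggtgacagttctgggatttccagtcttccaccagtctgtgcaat
Slfn1, chr11:83116731-83116769, plus strand: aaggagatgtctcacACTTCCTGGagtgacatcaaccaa
Slfn4, chr11:83175098-83175136, plus strand: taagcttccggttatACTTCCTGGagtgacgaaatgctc
Slfn3, chr11:83191273-83191311, plus strand: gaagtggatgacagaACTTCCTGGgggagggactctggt
The stretch began 55 bases before the start of Slfn2, 74 before Slfn1, 73 before Slfn4 and 42 before Slfn3. The whole 250-base window is printed for Slfn2, whose transcript differed most between the lines. The letters TTCNNNGAA, the form of site that STAT5 binds, were in none of the members' windows and in 7.02% of all windows. These are matches of letters only, and none of them was tested as a binding site.

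The libraries held between 11948136 and 19016396 counted reads. Reads of the knocked-out genes served to check the labels. Stat5a had 36 to 48.2 normalized CPM (CPM, counts scaled to a common library total by edgeR's TMM method) in wt libraries, 11.8 to 13.6 in Stat5a-/- and 72.2 to 91.7 in Stat5b-/- libraries, and Stat5b had 103 to 107 in wt, 124 to 156 in Stat5a-/- and 58.5 to 72.3 in Stat5b-/- libraries. Each targeted gene was lowest in its own knockout line, with reads remaining, and the direction of every comparison below rests on these labels. The 9 B-lineage markers passed the filter in full, with a summed level of 4687 to 4988 normalized CPM in wt, 6449 to 7153 in Stat5a-/- and 5742 to 6585 in Stat5b-/- libraries. Of 12 markers of monocytes, macrophages and granulocytes 3 passed it, summing to 13.8 to 22.4 in any library, and of 6 erythroid markers 1 passed it. The sum of 16 T-cell markers also differed between the lines and is given with the results it moves with.

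Most of the tested members were raised in Stat5b-/- cells. The transcripts of 5 of the 6 tested members rose against wt and none fell, where 24.2% of all tested genes rose and 22% fell. Slfn2 rose 5.68-fold and Slfn5 4.22-fold, followed by Slfn8, Slfn1 and Slfn9. In Stat5a-/- cells 2 of the 6 rose, Slfn2 by 7.92-fold and Slfn5 by 2.25-fold, and none fell, where 19.8% of all tested genes rose and 16.3% fell. The number that rose in Stat5a-/- cells was 3 or 4 in some alternative fits, described at the end. Between the knockout lines, 4 members were higher and 1, Slfn2, was lower in Stat5b-/- cells, where 16.4% of all tested genes were higher and 17.5% lower. The median log2 fold change of the 6 members was 1.20 in Stat5b-/- against wt, 0.47 in Stat5a-/- against wt and 0.71 between the knockouts, and over all tested genes it was 0.02, 0.01 and 0.02. The comparisons with wt share the wt libraries, and a gene passed the test at a Benjamini-Hochberg adjusted p under 0.05 in edgeR's quasi-likelihood fit of all 9 libraries. In bulk samples, fewer cells of a type and less RNA per cell cannot be told apart.

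**Figure D1:**
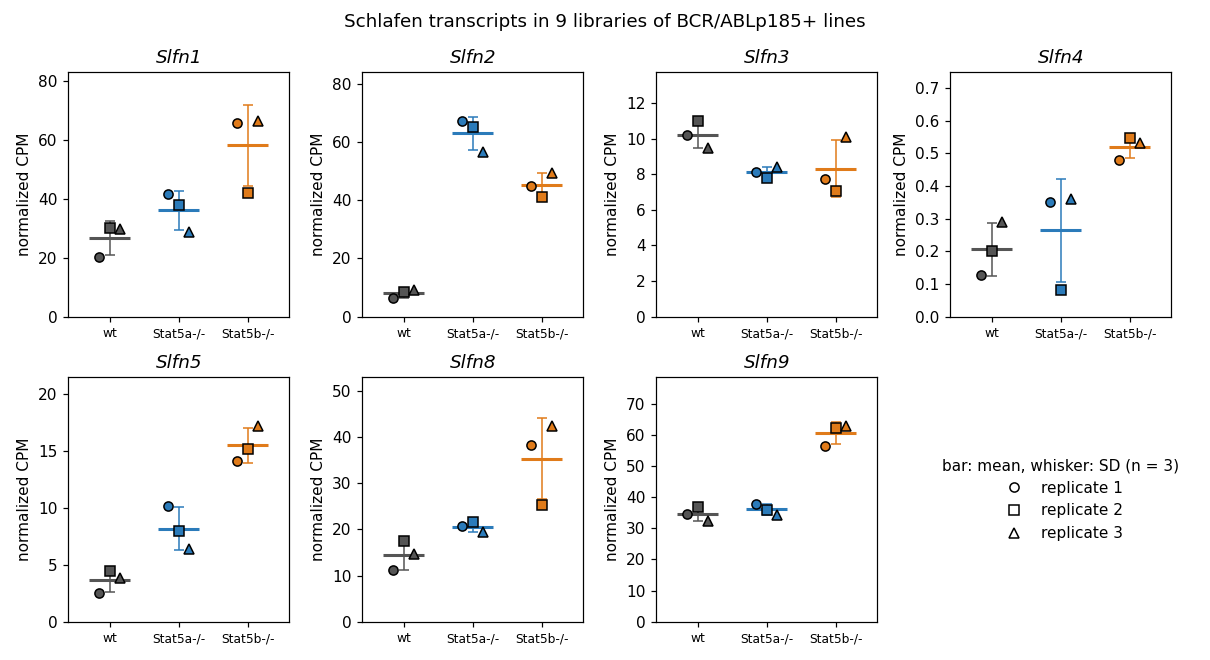
Normalized CPM of the 7 Schlafen members in each library (vertical axes start at 0), by genotype. Points are libraries, bars means and whiskers SD of 3 technical replicates. Slfn2 went from 6.22 to 9.13 in wt libraries to 56.7 to 67.3 in Stat5a-/- libraries, while Slfn3 stayed between 7.04 and 11 in all 9.

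Slfn2, a short member known for keeping T cells and monocytes quiescent, had the largest change of the family. Its level was 6.22, 8.43 and 9.13 normalized CPM in wt replicates 1 to 3, 67.3, 65 and 56.7 in Stat5a-/- and 45, 41.2 and 49.3 in Stat5b-/- libraries. The 3 lines did not overlap, and every Stat5a-/- library lay above every Stat5b-/- library. Against wt its log2 fold change was 2.99 (SE 0.15, edgeR adjusted p = 4.80e-09) in Stat5a-/- and 2.50 (SE 0.15, edgeR adjusted p = 2.09e-08) in Stat5b-/- cells. Between the knockouts it was the lower one in Stat5b-/- cells, with a log2 fold change of -0.48 (SE 0.13, edgeR adjusted p = 0.0139). This last difference was no longer past the threshold without Stat5a-/- replicate 1 (-0.43, edgeR adjusted p = 0.0553) or without Stat5b-/- replicate 2 (-0.42, edgeR adjusted p = 0.0599), whereas the rises over wt passed in each of 18 alternative fits.

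Slfn1, the other short member, known for restraining thymocyte growth, followed another order. It had 20.1, 30.1 and 29.9 normalized CPM in wt, 41.6, 38 and 28.8 in Stat5a-/- and 65.9, 42.2 and 66.6 in Stat5b-/- libraries. The Stat5b-/- libraries were above all others, while Stat5a-/- replicate 3 lay within the wt range. The rise in Stat5b-/- cells had a log2 fold change of 1.12 (SE 0.20, edgeR adjusted p = 5.71e-04). In Stat5a-/- cells it was 0.44 (95% interval -0.01 to 0.88, edgeR adjusted p = 0.118), and 0.27 without wt replicate 1 (edgeR adjusted p = 0.345). This Stat5a-/- value passed in 2 of 18 alternative fits. These were without a filter on low counts (0.42, edgeR adjusted p = 0.0161) and with an offset for GC content (0.48, edgeR adjusted p = 0.0316). Slfn1 was higher in Stat5b-/- than in Stat5a-/- cells by 0.69 (SE 0.20, edgeR adjusted p = 0.0193), a call that was lost when Stat5a-/- replicate 3 (0.56, adjusted p = 0.0573), Stat5b-/- replicate 1 (0.58, adjusted p = 0.0678) or Stat5b-/- replicate 3 (0.58, adjusted p = 0.054) was left out.

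The 2 short members thus had opposite orders in the knockout lines. Per kilobase of exon, the ratio of Slfn2 to Slfn1 was 0.313 to 0.346 in wt libraries, 1.81 to 2.21 in Stat5a-/- and 0.766 to 1.09 in Stat5b-/- libraries. The ratio was lowest in wt and highest in Stat5a-/- cells, with no overlap among the 3 lines.

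Slfn3, an intermediate member, had 10.2, 11 and 9.47 normalized CPM in wt, 8.11, 7.81 and 8.39 in Stat5a-/- and 7.75, 7.04 and 10.1 in Stat5b-/- libraries. All Stat5a-/- libraries lay below all wt libraries, and Stat5b-/- replicate 3 lay within the wt range. The log2 fold change was -0.33 in Stat5a-/- (95% interval -0.67 to 0.00, edgeR adjusted p = 0.117) and -0.30 in Stat5b-/- cells (95% interval -0.64 to 0.03, edgeR adjusted p = 0.125). Without Stat5b-/- replicate 3 the latter was -0.46 and past the threshold (edgeR adjusted p = 0.0297). Between the knockouts the difference was 0.03 (95% interval -0.32 to 0.38, edgeR adjusted p = 0.909).

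Slfn4, the other intermediate member and a gene of the monocyte and macrophage lineage, was close to the limit of detection. Its reads numbered 2, 4 and 5 in wt, 5, 1 and 4 in Stat5a-/- and 7, 8 and 7 in Stat5b-/- libraries, with sums of 11, 10 and 22. Each Stat5b-/- library held more reads than any other library. With so few reads the gene was below the filter, and a fit with no filter gave 1.27 for its log2 fold change in Stat5b-/- cells over wt (edgeR adjusted p = 0.13).

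Slfn5, a long member found in the nucleus, rose in both knockouts and more in Stat5b-/- cells. It had 2.54, 4.49 and 3.87 normalized CPM in wt, 10.2, 7.97 and 6.4 in Stat5a-/- and 14.1, 15.2 and 17.2 in Stat5b-/- libraries. The 3 lines formed separate ranges in the order wt, Stat5a-/-, Stat5b-/-. The log2 fold change was 1.17 (SE 0.22, edgeR adjusted p = 0.00105) in Stat5a-/- and 2.08 (SE 0.21, edgeR adjusted p = 4.51e-06) in Stat5b-/- cells. The difference between the knockouts was 0.91 (SE 0.20, edgeR adjusted p = 0.00409). Slfn5 is the only member whose exons overlap another annotated gene, the antisense Slfn5os, over 8.84% of its exon bases, and Slfn5os held 0 to 1 reads in any library.

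Slfn8, a long member, had 11.2, 17.5 and 14.6 normalized CPM in wt, 20.7, 21.7 and 19.5 in Stat5a-/- and 38.3, 25.4 and 42.4 in Stat5b-/- libraries. The 3 lines again formed separate ranges in the order wt, Stat5a-/-, Stat5b-/-. It rose in Stat5b-/- against wt with a log2 fold change of 1.29 (SE 0.19, edgeR adjusted p = 1.24e-04) and was higher than in Stat5a-/- cells by 0.77 (SE 0.19, edgeR adjusted p = 0.00758). In Stat5a-/- against wt the value was 0.51 (SE 0.20, edgeR adjusted p = 0.0578), which missed the threshold although no library overlapped, and it passed in 8 of 18 alternative fits, with adjusted p from 0.00776 to 0.188. Among these, it passed without wt replicate 2 (0.67, edgeR adjusted p = 0.0272), without Stat5b-/- replicate 2 (0.51, edgeR adjusted p = 0.0244) and without Stat5b-/- replicate 3 (0.51, edgeR adjusted p = 0.0371).

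Slfn9, the long member beside Slfn8 on the chromosome, was raised in Stat5b-/- cells. It had 34.5, 36.8 and 32.3 normalized CPM in wt, 37.8, 36 and 34.4 in Stat5a-/- and 56.4, 62.1 and 62.8 in Stat5b-/- libraries. The wt and Stat5a-/- libraries overlapped, and the Stat5b-/- libraries lay above both. The rise in Stat5b-/- cells had a log2 fold change of 0.80 (SE 0.10, edgeR adjusted p = 2.64e-05) against wt and 0.74 (SE 0.10, edgeR adjusted p = 1.04e-04) against Stat5a-/-. In Stat5a-/- against wt it was 0.06 (95% interval -0.16 to 0.28, edgeR adjusted p = 0.67).

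**Figure D2:**
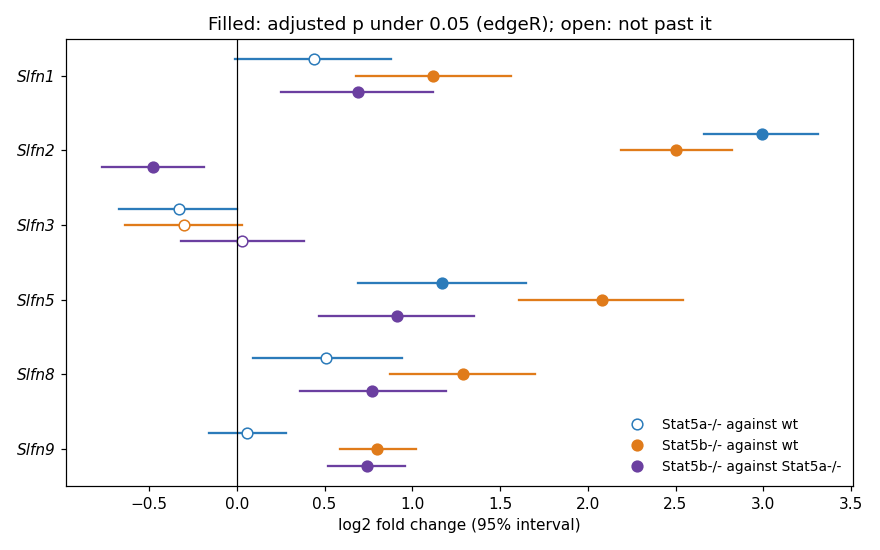
Log2 fold change (horizontal axis) of the 6 tested members with 95% intervals in the 3 comparisons. Filled points passed an adjusted p of 0.05. All 3 comparisons of Slfn3 were open, while for Slfn2 the value between the knockouts was -0.48, the only filled point left of 0.

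Related members share sequence, and reads that map to several places are not counted by default. In the GENCODE M21 transcripts, 14.6% of the 50-base stretches of Slfn8 recurred in Slfn9 or the pseudogene Slfn10-ps, and 11.2% of those of Slfn9 recurred in Slfn8 or Slfn10-ps. For Slfn4 the share found in other Schlafen genes was 8.15%, for Slfn3 7.39%, for Slfn2 4.27% and for Slfn1 0.606%, and Slfn5 shared none with the family. With all other genes included, the share was highest for Slfn3, at 16%, followed by Slfn8 at 14.6%, Slfn9 at 11.9%, Slfn4 at 11.3% and Slfn5 at 11.1%, and it remained 4.27% for Slfn2 and 0.606% for Slfn1. The counts of Slfn3, Slfn4, Slfn5, Slfn8 and Slfn9 are less certain for this reason than those of Slfn1 and Slfn2.

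Compared per length, the order of the family also changed. In wt cells Slfn1 was highest, at 14.3 ± 3.06 normalized CPM per kb (SD, n = 3), followed by Slfn9 at 5.79 ± 0.375, Slfn2 at 4.76 ± 0.913, Slfn8 at 3.52 ± 0.772 and Slfn3 at 2.99 ± 0.218. Of these neighbours, Slfn9 and Slfn2, Slfn2 and Slfn8, and Slfn8 and Slfn3 overlapped in their libraries. Slfn5 was far lower, at 0.574 ± 0.158, and Slfn4 was lowest, at 0.0519 ± 0.0204.

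In Stat5a-/- cells Slfn2 came first, at 37.9 ± 3.34 normalized CPM per kb, ahead of Slfn1 at 19.4 ± 3.55, Slfn9 at 6.05 ± 0.284, Slfn8 at 5.04 ± 0.275, Slfn3 at 2.38 ± 0.0841, Slfn5 at 1.3 ± 0.302 and Slfn4 at 0.0666 ± 0.0399, with no overlap between neighbours. In Stat5b-/- cells Slfn1, at 31.2 ± 7.47, and Slfn2, at 27.2 ± 2.43, overlapped at the top. Below them Slfn9, at 10.1 ± 0.588, overlapped Slfn8, at 8.64 ± 2.17, and Slfn5, at 2.45 ± 0.248, overlapped Slfn3, at 2.43 ± 0.462. Slfn5 had thus drawn level with Slfn3, which it lay well below in wt cells, and Slfn4 stayed lowest at 0.131 ± 0.0089.

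Summed per length over the 7 members, the family amounted to 26.5, 35.7 and 34 normalized CPM per kb in wt, 78.2, 74.4 and 63.6 in Stat5a-/- and 85.9, 68.6 and 92.1 in Stat5b-/- libraries. The sums of both knockouts lay above all wt libraries and overlapped each other. Their make-up differed, since Slfn2 took 14.1 to 16.1% of the sum in wt, 51.7 to 53.6% in Stat5a-/- and 31.5 to 36.1% in Stat5b-/- libraries. Slfn1 took 40.8 to 47.2% in wt, 24.3 to 28.5% in Stat5a-/- and 33 to 41.2% in Stat5b-/- libraries.

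**Figure D3:**
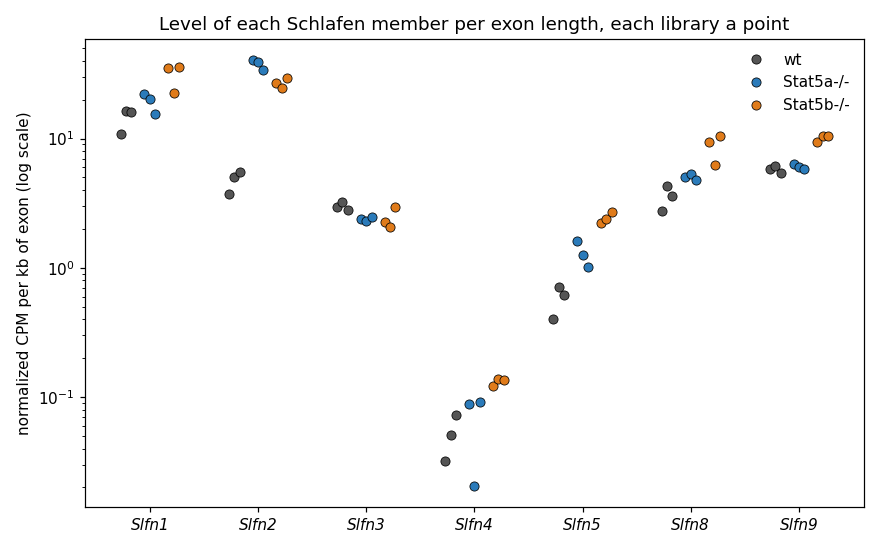
Level of each member in normalized CPM per kb of exon (log scale), each point a library, coloured by genotype. Slfn2 passed from a mean of 4.76 in wt to 37.9 in Stat5a-/- cells, and Slfn4 stayed below 0.14 in every library.

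The members' genomic neighbours were counted next, because the cluster lies on the chromosome of the deleted genes. Within 1 Mb on either side of the cluster 85 other genes are listed and 28 were tested. Of these, 8 rose and 10 fell in Stat5b-/- against wt, with a median log2 fold change of -0.08, and 8 rose and 8 fell in Stat5a-/- against wt, with a median of -0.09. Between the knockouts 4 were higher and 4 lower in Stat5b-/- cells. Among the 1095 other tested genes of chromosome 11, 273 rose and 268 fell in Stat5b-/- and 196 rose and 214 fell in Stat5a-/- against wt. The members thus had a higher median than the genes around them in both comparisons with wt. The following neighbours were singled out after their values were seen.

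The pseudogene Slfn10-ps (ENSMUSG00000072621.13, 83028130 to 83040042, minus strand), which lies beside Slfn8, went the opposite way to it. It had 11.4, 14 and 15.2 normalized CPM in wt, 9.93, 8.79 and 8.66 in Stat5a-/- and 5.42, 6.7 and 4.72 in Stat5b-/- libraries. The 3 lines did not overlap and ran in the reverse order of Slfn8. It fell in Stat5a-/- by 0.57 on the log2 scale (SE 0.16, edgeR adjusted p = 0.0147) and in Stat5b-/- by 1.27 (SE 0.17, edgeR adjusted p = 4.47e-05). Without wt replicate 3 the Stat5a-/- value for Slfn10-ps was -0.48 and no longer past the threshold (edgeR adjusted p = 0.0755). It shared 19.7% of its 50-base stretches with Slfn8 or Slfn9, and the ratio of Slfn8 to Slfn10-ps per kb was 0.848 to 1.1 in wt, 1.85 to 2.19 in Stat5a-/- and 3.35 to 7.94 in Stat5b-/- libraries.

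Gm20234, whose span (83065752 to 83071246, minus strand) overlaps most of the Slfn2 gene while no exon bases are shared, had a log2 fold change of 0.50 in Stat5b-/- (edgeR adjusted p = 0.022) and -0.41 in Stat5a-/- cells (edgeR adjusted p = 0.0806), against 2.50 and 2.99 for Slfn2. Gm11427, beyond Slfn3, fell by 1.34 in Stat5b-/- (edgeR adjusted p = 3.19e-06) and by 1.15 in Stat5a-/- cells (edgeR adjusted p = 1.46e-05) on the log2 scale. The chemokine gene Ccl5 rose by 1.07 (edgeR adjusted p = 1.86e-06) and 0.61 (edgeR adjusted p = 3.33e-04), while Ccl9, another chemokine gene of the same stretch, fell by 3.40 (edgeR adjusted p = 4.02e-05) and by 2.74 (edgeR adjusted p = 1.82e-04). Slfn14 and Slfn5os held 0 to 1 reads in every library.

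**Figure D4:**
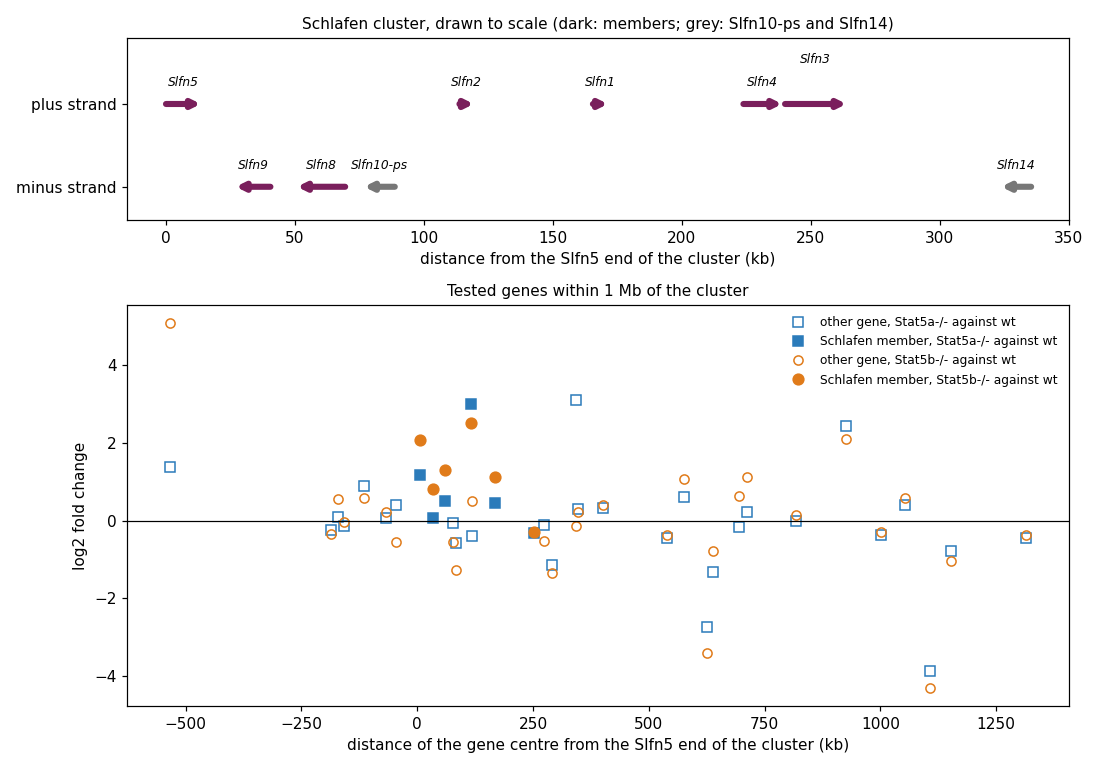
The Schlafen cluster drawn to scale, with arrows in the direction of transcription (top), and the log2 fold change against wt of tested genes within 1 Mb by distance from the Slfn5 end (bottom). Filled symbols are members and open symbols other genes. In Stat5b-/- cells (circles) members lay between -0.30 and 2.50, among neighbours of both signs.

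The other genes of the interferon pathway were counted from a list of 40, all of which were tested. The list was chosen with earlier results of these data known, so its counts are a description. In Stat5b-/- against wt 35 rose and 3 fell, with a median log2 fold change of 1.41, and in Stat5a-/- against wt 20 rose and 3 fell, with a median of 0.56. Between the knockouts 25 were higher and 2 lower in Stat5b-/- cells, with a median of 0.77. The shares of all tested genes that rose and fell were 24.2% and 22% in Stat5b-/- against wt, 19.8% and 16.3% in Stat5a-/- against wt, and 16.4% and 17.5% between the knockouts, and they hold for the parts of the list below too. The Schlafen medians of 1.20, 0.47 and 0.71 were lower than those of the list in each comparison. Without wt replicate 1, wt replicate 3 or Stat5b-/- replicate 3, the number that fell in Stat5b-/- against wt was 1 instead of 3.

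The list held 10 receptor, kinase and transcription factor genes that carry the signal of type I interferon or of interferon-gamma. Of these, 8 rose and 2 fell in Stat5b-/- against wt, and 2 rose and 2 fell in Stat5a-/- against wt. Irf9, a DNA-binding factor of the pathway, rose by 1.38 on the log2 scale in Stat5b-/- cells (SE 0.11, edgeR adjusted p = 3.25e-07) and had 0.24 in Stat5a-/- cells (SE 0.11, edgeR adjusted p = 0.104). The genes that fell in Stat5b-/- cells were the interferon-gamma receptor chain gene Ifngr2 (-0.26, edgeR adjusted p = 0.038) and the kinase gene Tyk2 (-0.44, edgeR adjusted p = 0.0271). Outside this group, the antiviral tether gene Bst2 also fell (-1.08, edgeR adjusted p = 2.14e-05). In Stat5a-/- cells those that fell were Ifngr2 (-0.46, edgeR adjusted p = 0.00175), Jak1 (-0.25, edgeR adjusted p = 0.0433) and the RNA sensor gene Ifih1 (-0.86, edgeR adjusted p = 0.00324).

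Of the 30 induced genes, 27 rose and 1 fell in Stat5b-/- against wt, with a median of 1.66, and 18 rose and 1 fell in Stat5a-/- against wt, with a median of 0.74. Irf7, a transcription factor of the response, rose by 2.34 (SE 0.15, edgeR adjusted p = 3.61e-08) in Stat5b-/- and by 1.02 (SE 0.15, edgeR adjusted p = 1.28e-04) in Stat5a-/- cells. Slfn5, at 2.08 and 1.17, had the same order of the knockouts as Irf7, whereas Slfn2, at 2.50 and 2.99, had the reverse order. Xaf1, an apoptosis-linked gene, had nearly equal rises of 1.87 (edgeR adjusted p = 6.44e-07) and 1.90 (edgeR adjusted p = 6.51e-07). Ifit2 (0.34, edgeR adjusted p = 0.0787) and Eif2ak2 (0.25, edgeR adjusted p = 0.149) did not pass in Stat5b-/- against wt.

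Profiles over the 9 libraries were compared by the root mean square difference of log2 normalized CPM after each gene's mean was subtracted, as a description over 12451 genes. Within the family the closest pair was Slfn1 and Slfn8, at 0.14, and the most distant was Slfn2 and Slfn3, at 1.47. Slfn8 and its chromosomal neighbour Slfn9 differed by 0.33. The nearest genes to Slfn1 were Skap1 (0.05), an adaptor of T-cell receptor signalling, the interleukin-18 receptor gene Il18r1 (0.07) and the sorting receptor gene Sorl1 (0.07).

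The genes nearest to Slfn2 were Gm2788 (0.18), the interferon-inducible GTPase gene Gbp2 (0.22) and the semaphorin gene Sema4a (0.22). For Slfn5 they were Zbp1 (0.16), a nucleic acid sensor gene that is also in the interferon list, Nlrc3 (0.18) and Abcg3 (0.21). Slfn8 was nearest to Tssk4 (0.06), Tent5a (0.07) and Tspan9 (0.07), and Slfn9 to Atxn7 (0.08), Phka2 (0.09) and Pecam1 (0.10). Slfn3 was nearest to Wars2 (0.09), Rrn3 (0.09) and Caap1 (0.10). No member was among the 3 nearest of another.

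T-cell markers, from a list chosen with earlier results of these data known, moved with part of the family. All 16 passed the filter, none was at 0 in any line, and 15 rose in Stat5b-/- and 8 in Stat5a-/- against wt, where 24.2% and 19.8% of all tested genes rose. Between the knockouts 14 were higher and 1 was lower in Stat5b-/- cells, where 16.4% and 17.5% of all tested genes were. Their summed level was 749.7, 1039 and 954 normalized CPM in wt, 1511, 1544 and 1343 in Stat5a-/- and 2477, 1722 and 2335 in Stat5b-/- libraries, so the lines formed separate ranges in the order of Slfn5 and Slfn8. Within each line, the library with the lowest T-cell sum was also the lowest for Slfn1, Slfn2 and Slfn8 in 3 of 3 lines, for Slfn5 in 2 of 3, and for Slfn3, Slfn4 and Slfn9 in 1 of 3. Stat5b-/- replicate 2, for example, was lowest of its line in T-cell markers and had 42.2 normalized CPM of Slfn1 and 25.4 of Slfn8, against 65.9 and 38.3 or more in the others, while its Slfn9, at 62.1, lay between the 56.4 and 62.8 of the others. How often other genes shared the lowest library was not counted. At the upper end, the T-cell sum was highest in wt replicate 2, Stat5a-/- replicate 2 and Stat5b-/- replicate 1. Slfn2 was highest in wt replicate 3, Stat5a-/- replicate 1 and Stat5b-/- replicate 3. For Slfn1 these were wt replicate 2, Stat5a-/- replicate 1 and Stat5b-/- replicate 3, and for Slfn8 wt replicate 2, Stat5a-/- replicate 2 and Stat5b-/- replicate 3. The part of T-cell transcripts in these results was not tested.

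Not every member had the order of the T-cell sum. Slfn2 was higher in Stat5a-/- than in Stat5b-/- libraries, and the T-cell sum was lower in Stat5a-/- libraries. Slfn9 was 32.3 to 37.8 normalized CPM in the wt and Stat5a-/- libraries, whose T-cell sums ran from 749.7 to 1544. Markers of natural killer cells, 4 of 6 past the filter and none at 0, summed to 29.1 to 44 normalized CPM in wt, 32.2 to 43.8 in Stat5a-/- and 43.1 to 79.9 in Stat5b-/- libraries. Of the 4 tested, 3 rose and 1 fell in Stat5b-/- against wt, where 24.2% of all tested genes rose and 22% fell. In Stat5a-/- against wt 0 rose and 1 fell, where 19.8% of all tested genes rose and 16.3% fell. The part of natural killer transcripts was not tested either.

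**Figure D5:**
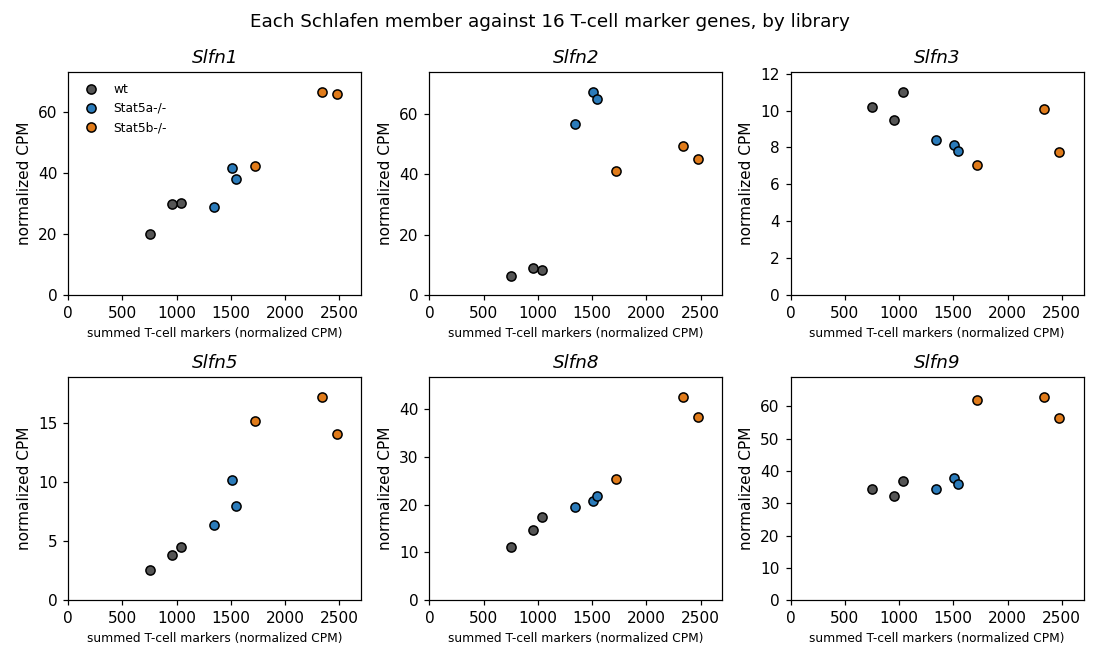
Normalized CPM of each tested member (vertical axes start at 0) against the summed normalized CPM of 16 T-cell markers, each point a library, coloured by genotype. Slfn1 and Slfn8 were lowest in the library with a T-cell sum of 749.7 and highest in libraries with sums of 2335 and 2477, whereas Slfn2 was highest at sums of 1343 to 1544.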

How the data were processed

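RNA-seq was measured in 9 libraries of 50-base single-end reads, 3 of each genotype. The authors trimmed the reads with Trimmomatic, mapped them with STAR to GRCm38 and deposited raw counts per union gene model, made with featureCounts 1.5.1 and GENCODE M13 per the file headers. The command in the headers names no strand setting and does not count reads that map to several places or overlap several genes. Samples were grouped by title and genotype label. The description field of the knockout samples names wt lines, in conflict with both.

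For 50376 of the 50686 gene IDs, GENCODE M21 supplied a symbol. Promoter windows came from a RefSeq table. Differences were tested by the quasi-likelihood method of edgeR 4.0.16 (R 4.3.3) with TMM normalization, the filterByExpr filter, all 9 libraries in 1 fit and Benjamini-Hochberg adjustment over 13852 genes. A standard error is the size of the log2 fold change divided by the root of its F value. Named were all members, the targeted genes, other Slfn genes of the cluster, the 3 nearest profiles per member among genes with a mean of at least 1 normalized CPM, and up to 4 examples and the deciding genes of the interferon list. Outside this rule, Gm20234, Gm11427, Ccl5 and Ccl9 were named after their values were seen. The members and lists were chosen with earlier results of these data known. Steps were tested on simulated data. Reads carry no molecular identifiers and may repeat a molecule.

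The alternatives were DESeq2 1.42.0, RLE and upper-quartile normalization, no filter, a mean of at least 10 counts, fits of the 2 genotypes compared, each library left out, the replicate number as a block, and an offset for GC content (lowess span 0.5, GC known for 99.8% of tested genes) with and without the block. The planned comparison of protein sequences was not made.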

Additional observations from a re-analysis of the deposited data

Results flagged for a closer look

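For 5 members the change from wt differed between the knockout lines, as tested by the direct comparison of Stat5b-/- with Stat5a-/- libraries in edgeR's quasi-likelihood fit. The log2 difference was 0.91 for Slfn5, 0.77 for Slfn8, 0.74 for Slfn9 and 0.69 for Slfn1, each higher in Stat5b-/- cells. For Slfn2 it was -0.48, lower in Stat5b-/- cells. Of all tested genes, 16.4% were higher and 17.5% lower in Stat5b-/- cells. The call of Slfn1 was lost without Stat5a-/- replicate 3, Stat5b-/- replicate 1 or Stat5b-/- replicate 3 (edgeR adjusted p = 0.0573, 0.0678 and 0.054), and that of Slfn2 without Stat5a-/- replicate 1 or Stat5b-/- replicate 2 (edgeR adjusted p = 0.0553 and 0.0599). Each knockout is 1 line, so these are differences between lines, and the summed T-cell markers, at 1343 to 1544 normalized CPM in Stat5a-/- and 1722 to 2477 in Stat5b-/- libraries, differed in the same direction as the first 4. Their part was not tested.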

How the results depend on the processing

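The rises of Slfn2 and Slfn5 in both knockouts and of Slfn1, Slfn8 and Slfn9 in Stat5b-/- against wt passed in all 18 alternatives each. The number of members that rose in Stat5a-/- against wt was 4 instead of 2 without a filter on low counts and with the GC offset, where Slfn1 (edgeR adjusted p = 0.0161 and 0.0316) and Slfn8 also passed, and the cause was not tested. Of all genes, 2888 of 27545 rose without a filter and 3042 of 13852 with the GC offset, against 2739 of 13852. With single libraries left out, members that fell in Stat5b-/- against wt numbered 0 to 1, members lower in Stat5b-/- than in Stat5a-/- 0 to 1, and interferon-list genes that fell in Stat5b-/- against wt 1 to 3. Slfn3 between the knockouts ran from -0.13 to 0.13 with single libraries left out, turning from 0.03 to -0.01 without Stat5a-/- replicate 2, -0.13 without Stat5b-/- replicate 3, and -0.06 with the GC offset, alone or with the replicate block, and passed in none.

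With the replicate block, 5 members rose and 0 fell in Stat5b-/- against wt, 2 rose and 0 fell in Stat5a-/- against wt, and 4 were higher and 1 lower between the knockouts. The interferon-list counts with the block were 34 and 2, 19 and 2, and 25 and 2, and those of all 13852 genes 3016 and 2738, 2420 and 1893, and 1802 and 2093. Libraries with the same number had a mean correlation across genes of -0.09 over 9 pairs (range -0.45 to 0.22), against 0.04 over 18 others. Each line was centred on its own mean, which ties these values to each other. They therefore cannot settle whether the numbers pair the libraries. Slfn4, at 1 to 8 reads, is limited by depth. Of 9 libraries from 3 lines, none gives the spread between lines of a genotype.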
